A study of Homo sapiens with 6 samples.

Results

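The SLC25 family comprises the mitochondrial carriers, proteins of the inner mitochondrial membrane that exchange nucleotides, organic acids, amino acids, cofactors and ions between the cytosol and the matrix. Members were taken as every gene row whose symbol was SLC25A followed by a number, which gave 49 of the 57773 rows, carrying 48 symbols. SLC25A10 had 2 rows, and the second, a model that also holds exons of MRPL12, had 0 counts in every library. The uncoupling proteins and a few other carriers have symbols of another form and are described apart from the members.

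HEK293 is an established human embryonic kidney line. Total RNA was sequenced in 3 libraries labelled TRDMT1 knockdown and in 3 labelled control. No other allele or agent is named, and the method of knockdown and the number of clones are not given in the sources used here. TRDMT1 is a methyltransferase for cytosines in transfer RNA. Whether replicates were grown separately is not in the labels, and p-values cover only the spread among these libraries, which may be technical. In bulk RNA, fewer cells of a type and less RNA per cell cannot be told apart.

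The targeted gene went against the labels. TRDMT1 (ENSG00000107614) was counted 221, 225 and 245 times in the libraries labelled knockdown, against 99, 93 and 80 times in those labelled control. On a scale adjusted for depth, every library labelled knockdown lay above every library labelled control. The log2 fold change was 0.61 ± 0.21 (SE, n = 3 each), 1.53-fold, with an edgeR adjusted p of 0.0705, and leaving out control replicate 2 gave 0.79 with an edgeR adjusted p of 0.00249. In the deposited table the columns of the libraries labelled knockdown carry the letter C, and those of the libraries labelled control carry TK. Whether the labels of the groups were exchanged cannot be told from these files. Directions given here are those of the labels, and every "rose", "fell", "higher" and "lower" would turn round if they were exchanged. Library totals were 36455950 to 40088993 counts in the libraries labelled knockdown and 24776040 to 26802182 counts in those labelled control. Control replicate 2 stood apart: processed pseudogenes took 2.51% of its counts and 0.895% to 1.16% of those of the other libraries, and its correlation with the other controls over the log2 CPM of the members was 0.967 to 0.972, against 0.995 between those controls and 0.998 to 0.999 among the libraries labelled knockdown. All 11 HEK293 markers reached 1 RPKM. Of the markers of other cell types, all 4 blood cell genes and all 4 hepatocyte genes stayed under 1 RPKM, and 1 of 5 fibroblast genes reached it.

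Mitochondrial carriers share a fold built from repeated pairs of membrane-spanning helices and alternate between a state open to the cytosol and a state open to the matrix. The ADP/ATP carriers export the ATP made by oxidative phosphorylation, the phosphate carrier supplies its phosphate, and the malate-aspartate shuttle moves reducing equivalents through the aspartate-glutamate and oxoglutarate carriers. Carriers are encoded in the nucleus, made in the cytosol and inserted by the TIM22 route. A few members lie elsewhere, SLC25A17 in peroxisomes and SLC25A46 in the outer mitochondrial membrane.

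Of the 49 rows, 43 passed the filter on low counts and were tested between the libraries labelled knockdown and those labelled control. A gene was called at an adjusted p under 0.05 in edgeR's quasi-likelihood test, with the adjustment over all 17805 genes tested. Of the 43 tested members 10 were called, a share of 23.3%, against 24% of all genes tested. Called higher in the libraries labelled knockdown were 5 members, the ATP-Mg/phosphate carriers SLC25A25 and SLC25A23, the dicarboxylate carrier SLC25A10, the glutamate carrier SLC25A22 and SLC25A45. These were 11.6% of the tested members, against a background of 9.29%. Called lower were the pyrimidine nucleotide carrier SLC25A36, the oxodicarboxylate carrier SLC25A21, the aspartate-glutamate carrier SLC25A12, the glutamate carrier SLC25A18 and SLC25A27, which is known as UCP4. These 5 were again 11.6%, against a background of 14.7%. The family's share of calls was thus near that of all genes.

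The median log2 fold change of the tested members was −0.13, against −0.04 over all genes tested. When libraries were scaled by their totals alone it was 0.06, against 0.13 over all genes, and in limma on log2(RPKM + 1) 0.05, against 0.08. In edgeR with TMM the members ran from −1.19 to 0.94, with 17 above 0 and 26 below. The libraries of the groups did not overlap in 24 tested members, 55.8%, where the background was 49.9%. The libraries labelled knockdown lay above all controls in 8 tested members, 18.6%, where the background was 23.9%, and below them in 16, 37.2%, where the background was 26%. The number of calls changed when 1 library was left out, a step that also leaves fewer libraries to test. Leaving out any 1 library labelled knockdown left 0 of 43 members called higher and 2 called lower (4.65%) in edgeR, while 1.71% to 1.94% of all genes were called higher and 4.96% to 5.43% lower. At an unadjusted p under 0.05 these fits had 5 members higher and 5 to 7 lower. The share of all genes at an unadjusted p was not taken, here or below, so such counts have no background. Leaving out control replicate 1 left 2 higher (4.65%) and 3 lower (6.98%), where all genes had 3.64% and 7.32%. Leaving out control replicate 3 left 5 higher (11.6%) and 8 lower (18.6%), where all genes had 12.4% and 16.8%. SLC25A36 and SLC25A21 kept their calls whichever library was left out. SLC25A25, SLC25A12 and SLC25A45 lost theirs without any 1 library labelled knockdown, and the other called members also without control replicate 1. Without control replicate 2, 9 members were called higher (20.9%) and 15 lower (34.9%), while 48.5% of all genes were called, 22.9% higher and 25.6% lower.

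**Figure D1:**
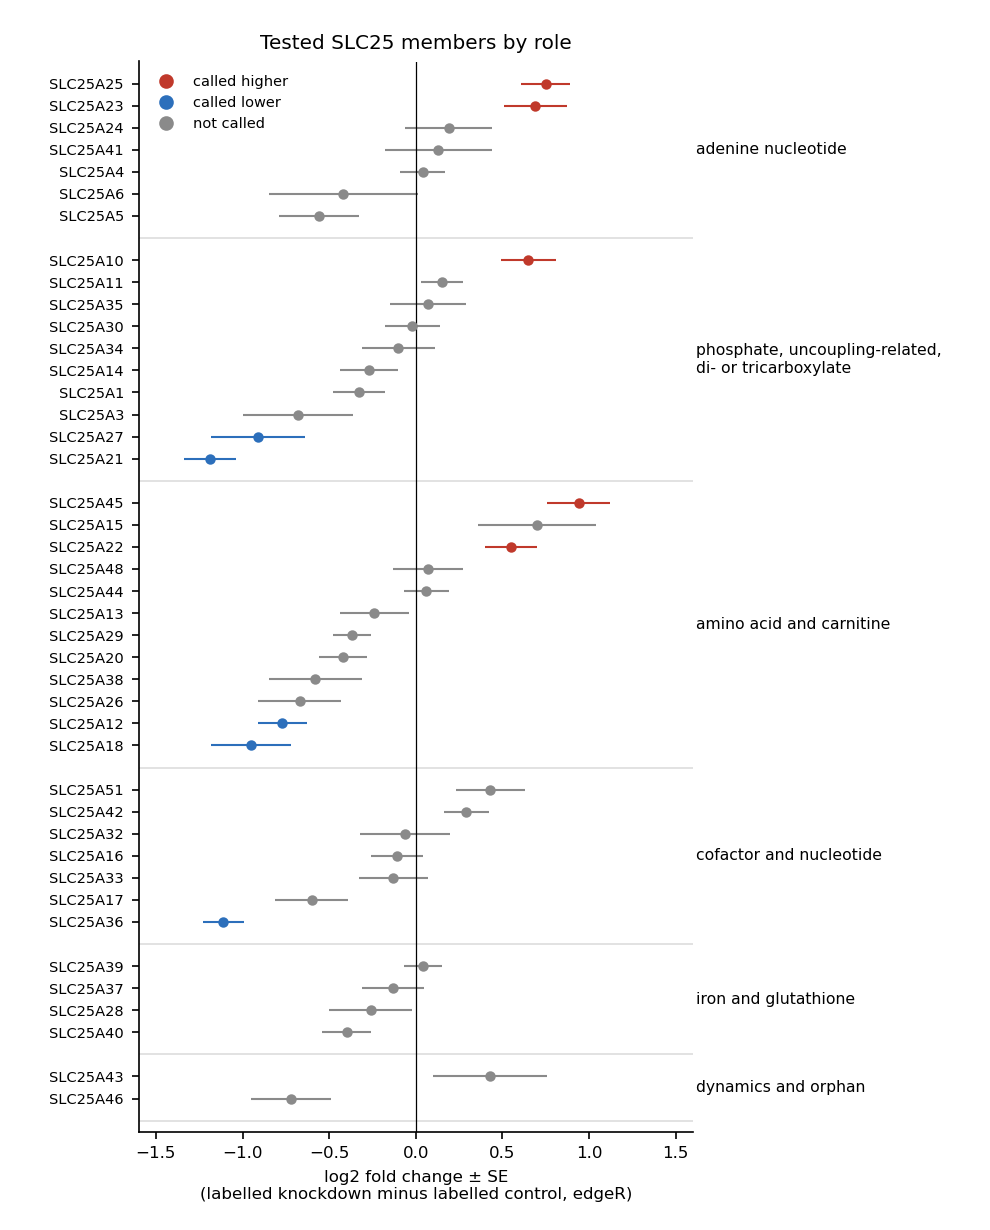
Log2 fold change (labelled knockdown minus labelled control) of the tested members, 1 of which is not drawn, grouped by role. Bars show a standard error derived from the F statistic of the edgeR test. The 5 members called higher lie between 0.55 and 0.94 and the 5 called lower between −1.19 and −0.77, and every role holds members that were not called.

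Promoters are shown for SLC25A36 and SLC25A25, which had the smallest edgeR p among the members called lower and among those called higher. SLC25A36 was called lower under 17 of 17 alternatives, and SLC25A25 was called higher under 14 of 17. Each window holds 250 bases before the transcription start and 50 after it, from RefSeq on GRCh38.p14. The SLC25A36 window is chr3:140941586-140941885 on the plus strand, with 64.7% G and C. The SLC25A25 window is chr9:128098257-128098556 on the plus strand, the first of 3 windows of that gene, with 56% G and C. Capitals mark a CCAAT box, read as CCAAT on either strand, or an E box, read as CACGTG.
SLC25A36: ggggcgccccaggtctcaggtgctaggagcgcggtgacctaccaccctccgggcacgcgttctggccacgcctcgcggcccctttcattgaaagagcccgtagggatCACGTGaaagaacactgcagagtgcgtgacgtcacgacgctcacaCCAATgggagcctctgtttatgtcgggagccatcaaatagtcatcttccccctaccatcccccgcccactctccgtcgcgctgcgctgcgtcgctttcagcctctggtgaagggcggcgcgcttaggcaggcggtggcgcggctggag
SLC25A25: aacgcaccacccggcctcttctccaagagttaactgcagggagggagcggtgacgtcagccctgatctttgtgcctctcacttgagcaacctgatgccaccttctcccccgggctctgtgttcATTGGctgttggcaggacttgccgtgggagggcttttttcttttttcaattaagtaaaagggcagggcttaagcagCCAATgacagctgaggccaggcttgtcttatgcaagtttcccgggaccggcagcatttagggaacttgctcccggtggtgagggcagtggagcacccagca
The SLC25A36 window holds 1 CCAAT box and 1 E box, and the SLC25A25 window holds 2 CCAAT boxes, 1 of them as its complement. RefSeq windows were found for 40 of the 48 member symbols, 50 windows in all, and were set beside all 34961 windows of the same length. The NRF1 motif (GCGC, any base, TGCGC) stood in 10% of member windows and 5.8% of all windows. The ETS motif CCGGAAG stood in 22% and 10.3%, the YY1 motif AAGATGGC in 4% and 2.89%, the CCAAT box in 44% and 34.6%, and the E box in 18% and 7.27%. Every motif was searched on both strands. Member windows were richer in G and C, with a median of 65.8% against 58.7% for all windows, so the shares of these motifs are a description.

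Levels are given below as RPKM, reads per kilobase of exonic length scaled to library depth, with each library's total scaled by the trimmed mean of M values (TMM). On this scale, 3 tested members averaged at least 100 RPKM over the 6 libraries, 9 lay between 10 and 100, 25 between 1 and 10, and 6 between 0.1 and 1. The highest were the ADP/ATP carriers SLC25A5 and SLC25A6 and the phosphate carrier SLC25A3. Between neighbours in the order of levels, the libraries were fully separated at SLC25A3 over SLC25A39, SLC25A39 over SLC25A11, SLC25A11 over SLC25A38, SLC25A35 over SLC25A45 and SLC25A43 over SLC25A47, and overlapped at every other step.

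SLC25A5 (ENSG00000005022), the ADP/ATP carrier of dividing cells, had 335.2, 352.2 and 332.9 RPKM in the libraries labelled knockdown, against 415.7, 681.3 and 405 RPKM in the controls. SLC25A6 (ENSG00000169100), a second widely expressed ADP/ATP carrier, had 338.9, 355.8 and 359.6 RPKM in the libraries labelled knockdown, against 291, 841.9 and 277.1 RPKM in the controls. SLC25A3 (ENSG00000075415), the phosphate carrier, had 112.4, 115.3 and 113.1 RPKM in the libraries labelled knockdown, against 145.8, 278.7 and 120.2 RPKM in the controls. In each of the 3 genes control replicate 2 was the highest of the 6 libraries by a wide margin. The log2 fold changes were −0.56 ± 0.23 for SLC25A5, −0.42 ± 0.43 for SLC25A6 and −0.68 ± 0.32 for SLC25A3, with edgeR adjusted p of 0.122, 0.505 and 0.158. Without control replicate 2, SLC25A5 was called lower at −0.27 and SLC25A6 was called higher at 0.31, so SLC25A6 changed sign. SLC25A6 lies in the pseudoautosomal region and both genes have close processed copies, so their counts are uncertain. The 40 pseudogene rows of the family together held 36 to 43 counts in the libraries labelled knockdown and 21 to 32 counts in the controls.

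The other members among the 10 highest were not called, apart from SLC25A23. SLC25A39, a glutathione carrier, had 66.8, 68.2 and 71.2 RPKM in the libraries labelled knockdown, against 71.1, 63.1 and 67 RPKM in the controls. SLC25A11, the oxoglutarate-malate carrier, had 58.1, 60.3 and 60.6 RPKM in the libraries labelled knockdown, against 50.5, 59.5 and 51.3 RPKM in the controls. Both had overlapping groups, with log2 fold changes of 0.04 ± 0.11 and 0.15 ± 0.12 and edgeR adjusted p of 0.839 and 0.374. SLC25A38, a glycine carrier needed for haem synthesis, had 20.4, 21.7 and 21 RPKM in the libraries labelled knockdown, against 25.6, 46.5 and 22.2 RPKM in the controls. The peroxisomal carrier SLC25A17 had 18.5, 18.7 and 18.7 RPKM in the libraries labelled knockdown, against 24.8, 37.9 and 21.9 RPKM in the controls. For both, all libraries labelled knockdown lay below the controls and the highest value was again control replicate 2. Their log2 fold changes of −0.58 ± 0.27 and −0.60 ± 0.21 had edgeR adjusted p of 0.162 and 0.0801. SLC25A28, mitoferrin-2, which brings iron into the matrix, had 16.3, 15.6 and 15.5 RPKM in the libraries labelled knockdown, against 16.2, 26.5 and 14.1 RPKM in the controls. Its groups overlapped, control replicate 2 was again the highest, and the log2 fold change of −0.26 ± 0.24 had an edgeR adjusted p of 0.458.

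**Figure D2:**
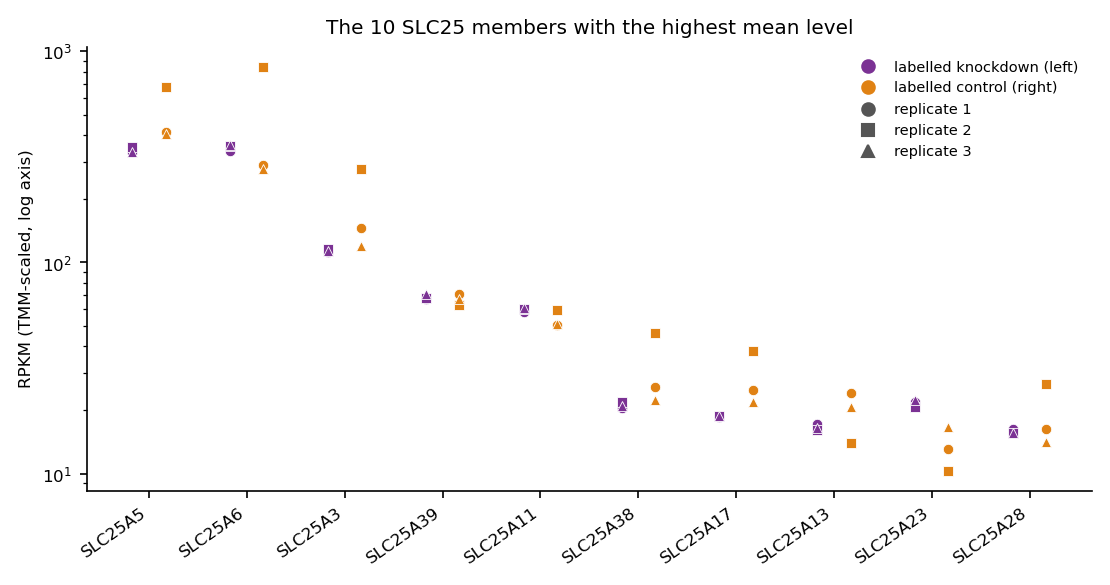
RPKM with TMM scaling (log axis) of the 10 members with the highest mean, with the libraries labelled knockdown left and those labelled control right for each gene and marker shapes for replicate numbers. Control replicate 2 reaches 681.3 RPKM for SLC25A5 and 841.9 RPKM for SLC25A6, above the other controls.

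Summed over all members, the deposited RPKM values came to 1230.9, 1281.6 and 1270.7 in the libraries labelled knockdown, against 1247.8, 1809.9 and 1213.2 in the controls. The means were 1261 ± 26.7 in the libraries labelled knockdown and 1423.6 ± 335 in the controls (SD, n = 3 each), and an exact two-sided permutation test gave p = 0.9, where 3 against 3 cannot go below 0.1. The difference was −162.6 RPKM, and without control replicate 2 it changed sign, to 30.5 RPKM. With TMM scaling, chosen after seeing the data, the difference was −368.5 RPKM (exact permutation p = 0.3), and without SLC25A5 and SLC25A6 it was −17.6 on the deposited scale (exact permutation p = 0.5). SLC25A5, SLC25A6 and SLC25A3 made up 67.7% to 68.3% of the sum in the libraries labelled knockdown and 67.9% to 80.8% in the controls, with 80.8% in control replicate 2. As a share of all counts, the family took 0.337% to 0.35% in the libraries labelled knockdown and 0.336% to 0.466% in the controls.

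Among the adenine nucleotide carriers, 7 of 8 were tested, 2 rose and none fell by the test, with a median log2 fold change of 0.13. At an unadjusted p under 0.05 or by voom with sample weights, 1 was lower, where voom called 5291 of all 17805 genes tested lower. Both that rose exchange ATP-Mg for phosphate under control of calcium. SLC25A25 (ENSG00000148339) had 6.4, 6.34 and 6.38 RPKM in the libraries labelled knockdown, against 3.84, 4.27 and 3.23 RPKM in the controls. The groups were well apart, and the libraries labelled knockdown were nearly equal. Its log2 fold change came to 0.75 ± 0.14, 1.69-fold, with an edgeR adjusted p of 0.0113. SLC25A23 (ENSG00000125648) had 21.7, 20.7 and 22.2 RPKM in the libraries labelled knockdown, against 13.1, 10.3 and 16.7 RPKM in the controls. Its groups did not overlap, and the controls spread more widely. Knockdown-labelled minus control, its log2 fold change was 0.69 ± 0.18, 1.61-fold, with an edgeR adjusted p of 0.0354. Their relatives SLC25A24 and SLC25A41 were not called. SLC25A24 had 7.51, 8.94 and 8.16 RPKM in the libraries labelled knockdown, against 8.85, 4.49 and 8.24 RPKM in the controls. SLC25A41 stayed between 0.207 and 0.332 RPKM in all 6 libraries. SLC25A4, the ADP/ATP carrier of heart and muscle, averaged 12.6 ± 0.463 RPKM in the libraries labelled knockdown and 12.2 ± 1.52 RPKM in the controls. SLC25A31, the testis form, had 0 counts in each library labelled knockdown, against 0, 1 and 0 counts in the controls, and was not tested. A count of 0 allows up to 3 counts, and these limits cover counting error only.

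Among the carriers of phosphate, of dicarboxylates and tricarboxylates and those related to the uncoupling proteins, 10 of 11 rows were tested, 1 rose and 2 fell, with a median of −0.19. SLC25A10 (ENSG00000183048), which exchanges malate or succinate for phosphate, had 15.2, 16.4 and 16.4 RPKM in the libraries labelled knockdown, against 10.8, 8.21 and 11.6 RPKM in the controls. All libraries labelled knockdown lay above the controls. The log2 fold change was 0.65 ± 0.16, 1.57-fold, with an edgeR adjusted p of 0.0261. In GENCODE 29, 46.6% of its exonic bases overlap the second SLC25A10 row on the same strand, so its count is uncertain. SLC25A21 (ENSG00000183032), which carries oxoadipate and oxoglutarate in the breakdown of lysine and tryptophan, had 1.14, 1.12 and 1.1 RPKM in the libraries labelled knockdown, against 2.73, 2.6 and 2.31 RPKM in the controls. The groups were far apart, with little spread within either. Its log2 fold change came to −1.19 ± 0.15, 2.28-fold lower, with an edgeR adjusted p of 0.00301, the lowest fold change among the tested members. Genes on the opposite strand overlap its exons, SLC25A21-AS1 over 15.8% of them and PAX9 over 13%, and without a stated strand setting their reads cannot be told apart. The same limit holds for SLC25A25, whose exons SLC25A25-AS1 overlaps over 13.5%, for SLC25A18, with an antisense gene over 11%, and for SLC25A22, with PANO1 over 10.8%. SLC25A21-AS1 was not called, with 1.32 to 1.37 RPKM in the libraries labelled knockdown and 1.36 to 1.44 RPKM in the controls.

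SLC25A27 (ENSG00000153291), UCP4, best known from neurons, had 5.57, 4.93 and 4.81 RPKM in the libraries labelled knockdown, against 7.87, 13.9 and 7.04 RPKM in the controls. The groups did not overlap, and control replicate 2 was far above the other controls. The fit gave a log2 fold change of −0.91 ± 0.27, 1.88-fold lower, with an edgeR adjusted p of 0.0474, and this call held under 6 of 17 alternatives. SLC25A14, known as UCP5, averaged 7.81 ± 0.655 RPKM in the libraries labelled knockdown and 9.44 ± 1.88 RPKM in the controls, and was not called. The citrate carrier SLC25A1, which supplies citrate for fatty acid synthesis, had 3.7, 3.93 and 4.54 RPKM in the libraries labelled knockdown, against 4.99, 4.83 and 5.49 RPKM in the controls. Its groups did not overlap, and the edgeR adjusted p was 0.15. SLC25A30, SLC25A34 and SLC25A35 had overlapping groups and were not called.

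Among the carriers of amino acids and carnitine, 12 of 14 were tested, 2 rose and 2 fell, with a median of −0.3. The calls ran in opposite directions within the glutamate carriers. SLC25A22 (ENSG00000177542), which brings glutamate into the matrix with a proton, had 5.66, 5.67 and 6.33 RPKM in the libraries labelled knockdown, against 4.28, 3.36 and 4.42 RPKM in the controls. Its paralog SLC25A18 (ENSG00000182902) had 0.24, 0.292 and 0.306 RPKM in the libraries labelled knockdown, against 0.552, 0.64 and 0.437 RPKM in the controls. Neither gene had overlapping groups, and SLC25A18 was the lower of the pair in all 6 libraries. SLC25A22 had a log2 fold change of 0.55 ± 0.15, 1.46-fold, with an edgeR adjusted p of 0.0381, and SLC25A18 one of −0.95 ± 0.23, 1.93-fold lower, with an edgeR adjusted p of 0.0266. The call of SLC25A22 held under 7 of 17 alternatives. That of SLC25A18, with 44 to 69 counts per library, held under 9 of 16.

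SLC25A12 (ENSG00000115840), aralar, the aspartate-glutamate carrier of brain and muscle, had 4.96, 4.59 and 4.72 RPKM in the libraries labelled knockdown, against 7.61, 9.54 and 7.27 RPKM in the controls. All libraries labelled knockdown lay below the controls. The fit gave a log2 fold change of −0.77 ± 0.14, 1.71-fold lower, with an edgeR adjusted p of 0.0111. Citrin, SLC25A13, the form of liver and of many other tissues, had 17.1, 16.1 and 16.4 RPKM in the libraries labelled knockdown, against 24, 14 and 20.6 RPKM in the controls. Its groups overlapped, with a log2 fold change of −0.24 ± 0.20 and an edgeR adjusted p of 0.402. SLC25A45 (ENSG00000162241) had 0.88, 0.85 and 0.827 RPKM in the libraries labelled knockdown, against 0.367, 0.487 and 0.481 RPKM in the controls. Its groups were well apart, and its log2 fold change of 0.94 ± 0.18, 1.92-fold, with an edgeR adjusted p of 0.0119, was the highest among the tested members.

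Several amino acid carriers had separate groups without a call. SLC25A15, the ornithine carrier of the urea cycle, had 11.7, 11.7 and 11.6 RPKM in the libraries labelled knockdown, against 8.75, 3.49 and 9.21 RPKM in the controls, with control replicate 2 lowest. SLC25A29, a carrier of basic amino acids, had 6.33, 6.01 and 6.71 RPKM in the libraries labelled knockdown, against 7.82, 8.63 and 8.1 RPKM in the controls. Its edgeR adjusted p of 0.0543 was the lowest among the members that were not called. SLC25A20, the carnitine-acylcarnitine carrier of fatty acid oxidation, had 7.38, 7.29 and 7.57 RPKM in the libraries labelled knockdown, against 10, 11.3 and 8.54 RPKM in the controls. SLC25A26, which brings S-adenosylmethionine into the matrix, averaged 2.49 ± 0.0989 RPKM in the libraries labelled knockdown and 3.97 ± 1.29 RPKM in the controls. SLC25A44, a carrier of branched-chain amino acids, averaged 6.65 ± 0.209 RPKM in the libraries labelled knockdown and 6.38 ± 0.718 RPKM in the controls, with overlapping groups. SLC25A48 stayed between 0.432 and 0.581 RPKM in all 6 libraries. SLC25A2, a second ornithine carrier, had 0 counts in every library, and the liver gene SLC25A47 had 1 to 3 counts per library, so neither was tested.

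**Figure D3:**
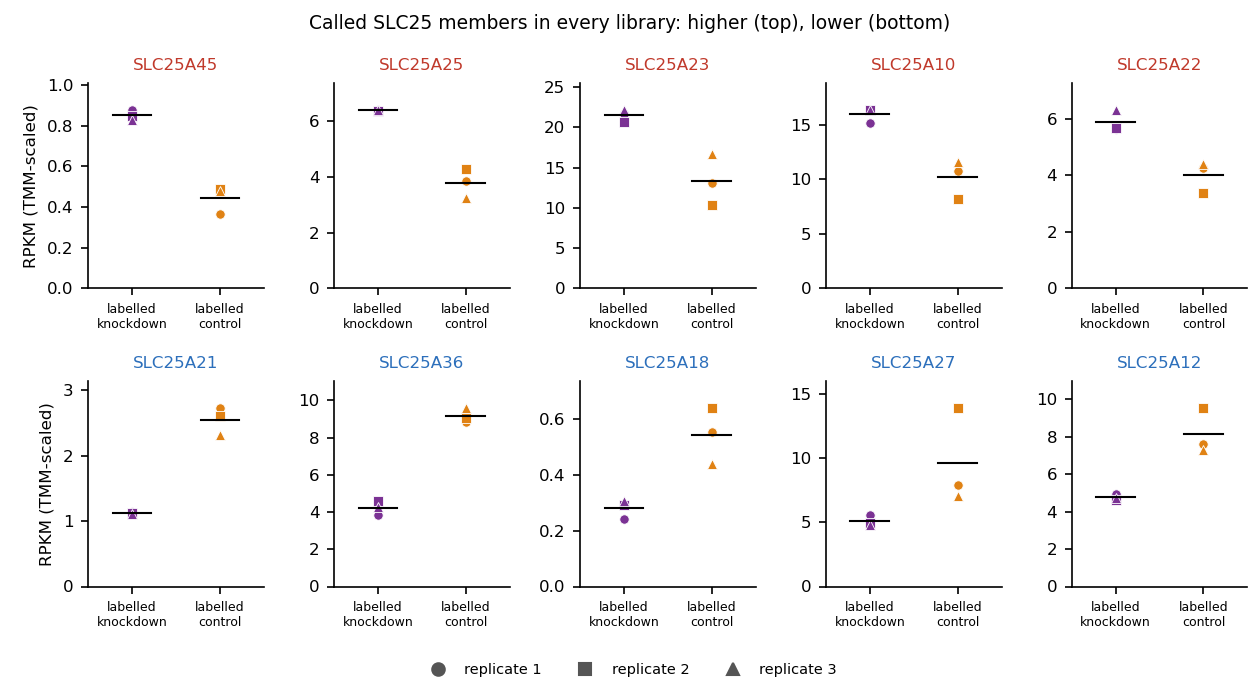
RPKM with TMM scaling (linear axis from 0) of the 10 called members in every library, the 5 called higher in the top row and the 5 called lower in the bottom row, with libraries labelled knockdown left and those labelled control right and a marker shape per replicate number. In none of the 10 panels do the groups overlap, and SLC25A27 shows control replicate 2 at 13.9 RPKM, far above the other controls.

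Among the carriers of cofactors and nucleotides, 8 of 10 were tested, none rose and 1 fell in edgeR, with a median of −0.12. At an unadjusted p under 0.05, 0 were higher and 3 lower. Voom with sample weights called 2 higher and 4 lower, where it called 4923 higher and 5291 lower of all 17805 genes tested. SLC25A36 (ENSG00000114120), which carries pyrimidine nucleotides into the matrix for mitochondrial DNA and RNA synthesis, had 3.84, 4.61 and 4.27 RPKM in the libraries labelled knockdown, against 8.83, 9.05 and 9.6 RPKM in the controls. The groups were far apart, and control replicate 2 lay between the other controls. This was a log2 fold change of −1.11 ± 0.12, 2.16-fold lower, with an edgeR adjusted p of 0.00166, which reached at most 0.0223 under the 17 alternatives. Its paralog SLC25A33 had 7.97, 8.38 and 7.94 RPKM in the libraries labelled knockdown, against 9.01, 11.1 and 6.46 RPKM in the controls, with overlapping groups. SLC25A51, the NAD carrier, had 4.86, 5.02 and 4.67 RPKM in the libraries labelled knockdown, against 3.98, 2.55 and 4.25 RPKM in the controls. SLC25A42, a carrier of coenzyme A, had 4.16, 3.78 and 4 RPKM in the libraries labelled knockdown, against 3.12, 3.52 and 3.12 RPKM in the controls. Both had separate groups, with the libraries labelled knockdown above the controls, and edgeR adjusted p of 0.164 and 0.136. SLC25A32, the folate carrier, averaged 4.55 ± 0.532 RPKM in the libraries labelled knockdown and 4.72 ± 1.6 RPKM in the controls. SLC25A16, linked to coenzyme A, averaged 2.08 ± 0.0947 RPKM in the libraries labelled knockdown and 2.24 ± 0.329 RPKM in the controls. SLC25A52 and SLC25A53 had 0 to 2 counts per library and were not tested.

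None of the 4 iron and glutathione carriers was called by edgeR with every library kept, by DESeq2 or by limma on log2(RPKM + 1). In edgeR 1 was lower at an unadjusted p under 0.05. Without control replicate 2, edgeR called SLC25A40 lower, at −0.44 with an adjusted p of 0.0119. With composition and length trends also removed, it called SLC25A39 lower, at −0.26, and SLC25A40 was called too. With voom sample weights 1 was called lower, where 5291 of all 17805 genes tested were. Mitoferrin-1, SLC25A37, averaged 3.05 ± 0.125 RPKM in the libraries labelled knockdown and 3.35 ± 0.739 RPKM in the controls. SLC25A40, a relative of SLC25A39, had 1.95, 2.4 and 2.17 RPKM in the libraries labelled knockdown, against 2.93, 2.65 and 2.99 RPKM in the controls, separate groups with a log2 fold change of −0.40 and an edgeR adjusted p of 0.0852. Its log2 fold change turned to 0.28 once the trends with composition and length described below were taken out. SLC25A46, an outer membrane protein that bears on mitochondrial shape, had 3.9, 5.03 and 4.77 RPKM in the libraries labelled knockdown, against 8.51, 5.1 and 8.99 RPKM in the controls. Its groups were separated only narrowly, by control replicate 2, and the log2 fold change of −0.72 had an edgeR adjusted p of 0.0625. After the same step it was 0.03. SLC25A43, of no settled substrate, stayed between 0.0958 and 0.225 RPKM in all libraries.

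The balance between paralogs of the same function was read as the share of 1 member in the summed deposited RPKM of its subfamily, which does not depend on library scaling. SLC25A36 made up 32.5%, 35.5% and 35% of the pyrimidine nucleotide carriers in the libraries labelled knockdown, against 49.5%, 45% and 59.8% in the controls. SLC25A13 made up 77.6%, 77.8% and 77.7% of the aspartate-glutamate carriers in the libraries labelled knockdown, against 75.9%, 59.5% and 73.9% in the controls. SLC25A40 made up 2.84%, 3.4% and 2.95% of the glutathione carriers in the libraries labelled knockdown, against 3.96%, 4.03% and 4.27% in the controls. In these 3 subfamilies the groups did not overlap. The exact two-sided permutation p was 0.1 for each, the smallest that 3 against 3 allows, and 0.2 after adjustment over the 6 shares compared. The differences were −17.1 percentage points for SLC25A36, 7.91 for SLC25A13 and −1.02 for SLC25A40. Without control replicate 2, the difference for SLC25A13 was 2.78 points. The shares were not corrected for the trends with composition and length described below. With those trends taken out, the log2 fold change was 0.28 for SLC25A40 and −0.22 for SLC25A39, the opposite order to the share. It was −0.83 for SLC25A36 against −0.1 for SLC25A33, and −0.16 for SLC25A13 against −0.75 for SLC25A12, in the order of the shares.

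The other 3 shares had overlapping groups. SLC25A5 made up 48.8%, 48.9% and 47.2% of the ADP/ATP carriers in the libraries labelled knockdown, against 57.8%, 44.3% and 58.5% in the controls. SLC25A24 made up 20.9%, 24.7% and 22% of the ATP-Mg/phosphate carriers, SLC25A41 among them, in the libraries labelled knockdown, against 34.1%, 23.1% and 29% in the controls. SLC25A28 made up 83.6%, 84% and 83.9% of the mitoferrins in the libraries labelled knockdown, against 85.1%, 86.3% and 82.2% in the controls. The exact two-sided permutation p was 0.4, 0.2 and 0.7 in that order. Only control replicate 2 fell within or below the range of the libraries labelled knockdown in the shares of SLC25A5 and SLC25A24, and only control replicate 3 did so in that of SLC25A28.

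**Figure D4:**
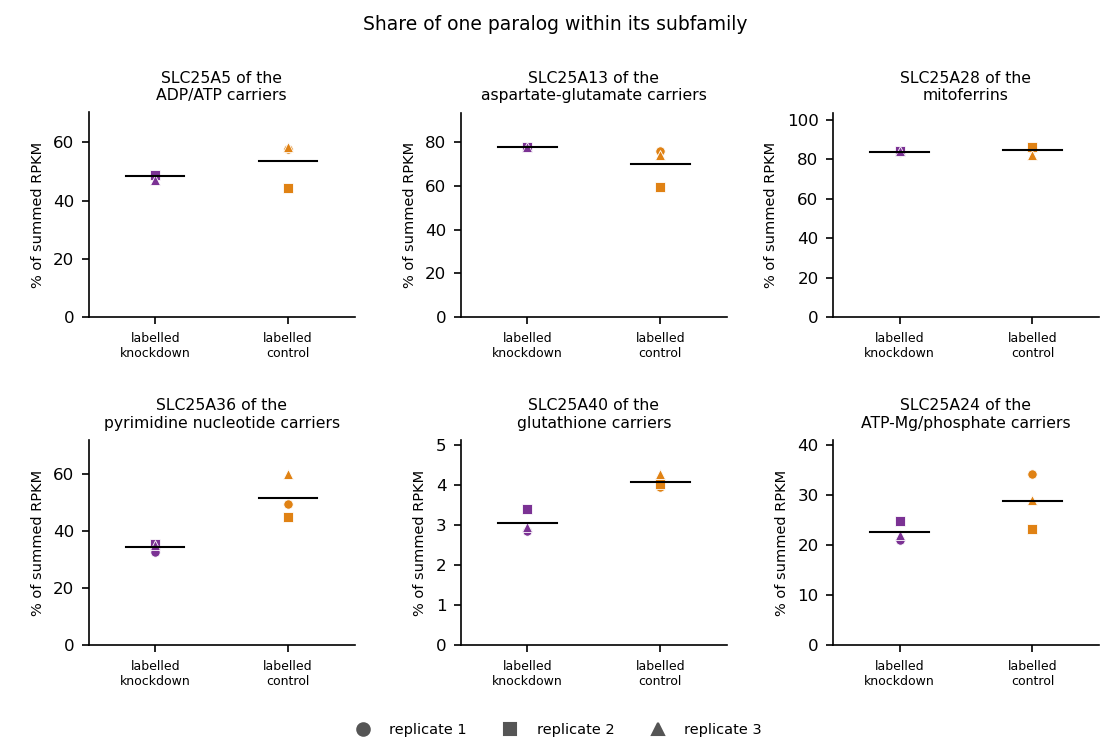
Share of 1 paralog in the summed deposited RPKM of its subfamily (per cent, axis from 0) in every library, with libraries labelled knockdown left and those labelled control right. The libraries labelled knockdown lie close together in every panel, and those for SLC25A36 lie between 32.5% and 35.5%, below controls of 45% to 59.8%.

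Base composition moved with the fold changes in the family as it did over all genes. Across the 43 tested members, the rank correlation of the log2 fold change with the percentage of G and C in the longest transcript was 0.45, against 0.4 across 17302 genes. For the percentage of A it was −0.49, against −0.41. These points share the same 6 libraries, and genes are not independent replicates. Members called higher had a median of 59.5% G and C (55.4% to 65.4%), members called lower had 42.2% (37.3% to 57.7%), and members that were not called had 50%. SLC25A18, with 57.7%, was the member called lower that stood apart from the others in composition.

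Removing trends with base composition and exonic length from each library left 1 of the 5 members called higher and 4 of the 5 called lower. SLC25A25 remained at a log2 fold change of 0.66 ± 0.12 with an edgeR adjusted p of 0.0144. SLC25A36 remained at −0.83, SLC25A12 at −0.75, SLC25A21 at −0.61 and SLC25A18 at −1.17, with edgeR adjusted p of 0.00794, 0.0135, 0.0232 and 0.0189. The calls of SLC25A45, SLC25A23, SLC25A10, SLC25A22 and SLC25A27 were lost, at 0.51, 0.28, 0.36, 0.15 and −0.53. SLC25A29 and SLC25A1 were among those then called lower, at −0.79 and −0.65. In this fit 20.5% of all genes were called, 9.22% higher and 11.2% lower, against 1 higher and 7 lower among the tested members. The part of base composition in the calls was not tested further. The protocol in the labels includes a kit for RNA methylation analysis, and the sources used here do not give whether the deposited values come from treated RNA.

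**Figure D5:**
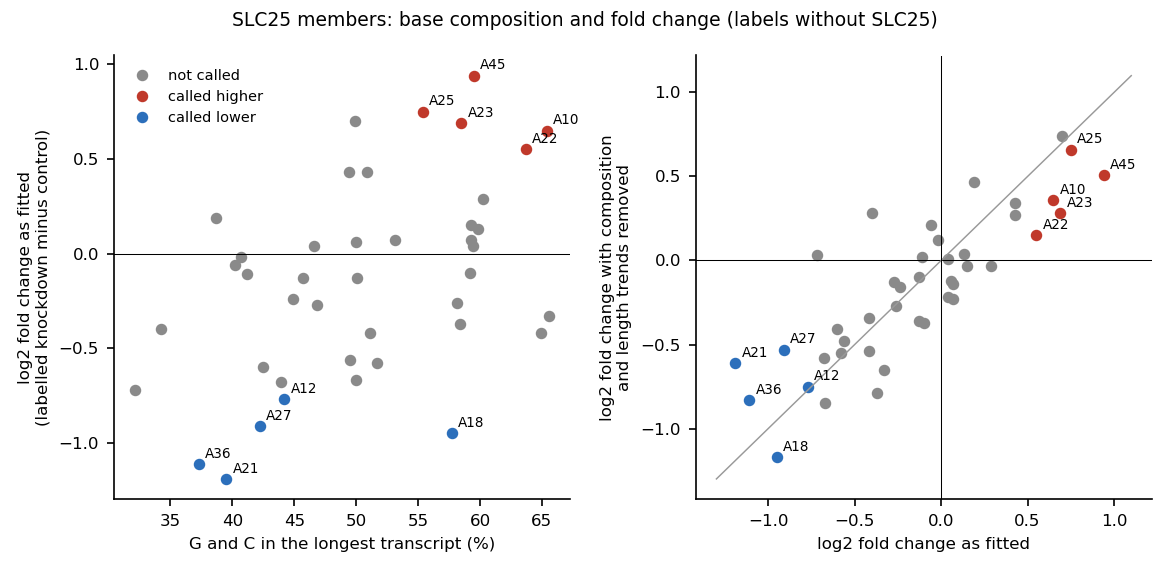
The left panel plots the log2 fold change (labelled knockdown minus labelled control) of each tested member, 1 of which is not drawn, against the percentage of G and C in its longest transcript, and the right panel plots the log2 fold change with composition and length trends removed against that as fitted, with a line of equality. Members called higher sit at 55.4% to 65.4% G and C, and in the right panel SLC25A36 stays at −0.83 and SLC25A25 at 0.66.

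Several chromosomes of called members had shifts of their own. The median log2 fold change of the tested protein-coding genes was −0.50 on chromosome 14, which holds SLC25A21, and −0.29 on chromosome 3, which holds SLC25A36. It was 0.31 on chromosome 11, which holds SLC25A45 and SLC25A22, and 0.28 on chromosome 9, which holds SLC25A25. The median was 0.03 on chromosome 19, which holds SLC25A23, and −0.16 on chromosome 2, which holds SLC25A12. It was 0.10 on chromosome 17, which holds SLC25A10, −0.14 on chromosome 6, which holds SLC25A27, and 0.05 on chromosome 22, which holds SLC25A18, a member called lower. Their part in the calls was not tested.

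Genes that work beside the carriers were read from 5 lists of the same kind. Over these lists 3 of 79 tested genes were called higher (3.8%) and 10 lower (12.7%), where all genes had 9.29% and 14.7%. The 5 tested family members with other symbols were the uncoupling proteins UCP1, UCP2 and UCP3 and the outer membrane proteins MTCH1 and MTCH2. None was called in edgeR with every library kept and no trends removed, and 1 was higher at an unadjusted p under 0.05. DESeq2 and voom sample weights each called 1 higher, where they called 2390 and 4923 of all genes higher. With composition and length trends removed edgeR called 1 higher (9.22% of all genes), and without control replicate 2 it called 3 (22.9% of all genes). The median was 0.05, and 0.19 and 0.21 in those 2 fits. Of 15 tested genes of carrier import, 3 fell and none rose in edgeR. At an unadjusted p under 0.05, 5 were lower and 1 was higher, and 1 was called higher by DESeq2. The median was −0.43, but −0.16 with composition and length trends removed and −0.12 without control replicate 2. TIMM9, a chaperone of the intermembrane space, had 9.68, 11 and 9.64 RPKM in the libraries labelled knockdown, against 22.9, 58.9 and 17.4 RPKM in the controls. Its log2 fold change of −1.71 became −0.99 without control replicate 2, which was far above the other controls. TOMM22, a receptor of the outer membrane, averaged 82.4 ± 3.37 RPKM in the libraries labelled knockdown and 113.1 ± 15.1 RPKM in the controls. TOMM5, a small subunit of the same complex, was the third, with a log2 fold change of −0.80 ± 0.20. The adjusted p in edgeR was 0.0326 for TIMM9, 0.047 for TOMM22 and 0.031 for TOMM5. Of 17 alternatives, the call held under 10 for TIMM9, 7 for TOMM22 and 10 for TOMM5. TIMM22, the channel that inserts carriers, had a log2 fold change of 0.03 and was not called.

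Among 25 other transporters of the mitochondrial membranes, 1 rose and 3 fell, with a median of −0.32. That median was −0.11 with composition and length trends removed and −0.08 without control replicate 2. VDAC1, the main pore of the outer membrane, averaged 95.5 ± 4.47 RPKM in the libraries labelled knockdown and 143.4 ± 8.58 RPKM in the controls (SD, n = 3 each). CPT1A, which commits fatty acids to import as acylcarnitines, averaged 6.16 ± 0.165 RPKM in the libraries labelled knockdown and 3.33 ± 0.75 RPKM in the controls. The others that fell were VDAC3, at −0.52, and MICU2, a regulator of the calcium uniporter, at −0.92. The adjusted p in edgeR was 0.0186 for VDAC1, 0.016 for CPT1A, 0.0341 for VDAC3 and 0.00851 for MICU2. Of 17 alternatives, the call held under 8 for VDAC1, 13 for CPT1A, 7 for VDAC3 and 14 for MICU2. VDAC2, a pore of the same family, had a log2 fold change of −0.55 with an edgeR adjusted p of 0.0835 and was not called. MPC1 and MPC2, which form the pyruvate carrier, had log2 fold changes of −0.45 and −0.17 and were not called.

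Among 21 tested enzymes on either side of the shuttles, 2 rose and 3 fell, with a median of −0.12. That median was −0.09 with composition and length trends removed and −0.1 without control replicate 2. Malate dehydrogenase fell in both compartments. MDH2, of the matrix, averaged 3.28 ± 0.367 RPKM in the libraries labelled knockdown and 5.99 ± 0.153 RPKM in the controls, and MDH1, of the cytosol, averaged 41.9 ± 0.429 RPKM in the libraries labelled knockdown and 66.4 ± 14.3 RPKM in the controls. GOT2, the aminotransferase of the matrix in the malate-aspartate shuttle, averaged 83.8 ± 2.28 RPKM in the libraries labelled knockdown and 61.4 ± 1.55 RPKM in the controls. Its cytosolic partner GOT1 had a log2 fold change of −0.08 and was not called. ACLY, which splits the citrate exported by SLC25A1, fell by 0.72 on the log2 scale, and NNT, the transhydrogenase of the inner membrane, rose by 0.61. The adjusted p in edgeR was 0.00624 for MDH2, 0.0323 for MDH1, 0.0291 for GOT2, 0.0391 for ACLY and 0.0193 for NNT. Of 17 alternatives, the call held under 16 for MDH2, 11 for MDH1, 11 for GOT2, 7 for ACLY and 13 for NNT. Of 13 tested regulators of mitochondrial biogenesis, GABPA, a subunit of an ETS factor, was the gene called, at −1.37 ± 0.36 with an edgeR adjusted p of 0.0341. Its call held under 7 of 17 alternatives. The median of the list was 0.01, but −0.09 with composition and length trends removed and −0.11 without control replicate 2. Leaving out 1 library at a time gave, over the 5 lists, 0 to 12 called higher and 1 to 28 called lower, the highest of each without control replicate 2, at 15.2% and 35.4%, where all genes had 22.9% and 25.6%. Once the trends with composition and length were taken out, the calls of TOMM5, TIMM9, MICU2, VDAC3 and GABPA were lost, at log2 fold changes of −0.31, −1.14, −0.06, −0.22 and −0.59 in that order.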

How the data were processed

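RNA was taken up in Trizol, depleted of ribosomal RNA, treated with a kit for RNA methylation and made into stranded libraries, per the labels' protocols. The authors deposited whole-number read counts per gene and RPKM values for the same 6 libraries. The RPKM values the authors deposited matched those recomputed from counts, exonic lengths and library totals to within 0.005. Per the submitters' processing notes, the genome was hg19 and the tools were edgeR 3.4.6, DESeq 1.18.0, DESeq2 1.6.3, HTSeq 0.6.1, StringTie 1 and bcl2fastq 2.17.1.14. The aligner, the strand setting and the annotation are not given in the sources used here.

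Counts of all genes were fitted with edgeR 4.0.16 in R 4.3.3 (TMM, its standard filter on low counts, the robust quasi-likelihood test, Benjamini-Hochberg adjustment over all genes tested, calls at 0.05). The standard error of a log2 fold change was its absolute value divided by the square root of the test's F statistic. Alternatives used DESeq2 1.42.0, limma 3.58.1 on log2(RPKM + 1) and with voom sample weights, a replicate block, and per-library smooth trends of base composition and length (mgcv 1.9.3, GENCODE 29, composition known for 97.2% of tested genes). The fit was tested on simulated counts, drawn separately for each gene and library. Unlike the real libraries, they held no outlying library and no trend with base composition, so the figures need not hold for the real calls. It recovered 30.3% of the 99 genes given a log2 change of 1 and 86.9% of the 99 given a change of 2. There were 10 false calls among 17790 genes. A member that was not called may thus still have changed. No pair of replicates agreed within sampling noise. Replicate numbers were shared by the groups but did not pair the samples. The members and lists were chosen with earlier results of these data known. Values in every library are given for called members and for the 10 members of highest mean level, and the other members are accounted for by role, apart from 1 that is counted but not reported here. From the lists beside the family, called genes and the VDAC and MPC genes are named. Protein sequences were not used here. GENCODE 29 is on another build than the files, so no coordinates of whole genes are given.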

Additional observations from a re-analysis of the deposited data

How the results depend on the processing

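The members called higher and lower (5 and 5) became 10 and 17 with voom sample weights, 3 and 3 with a replicate block, 1 and 7 with composition and length trends removed, and 1 and 3 with the replicate block and those trends removed together. With the trends removed and control replicate 2 left out, chosen after seeing the data, 6 were called higher and 13 lower. Leaving out 1 library at a time gave 0 to 9 higher and 2 to 15 lower. Same-numbered libraries had correlations of −0.04, 0.057 and 0.001 between their deviations from the group means, so the numbers pair nothing known.

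Over all genes, 1654 higher became 4923 with voom weights, 773 with the block and trends together and 4362 with the trends removed and control replicate 2 left out. The 2613 lower became 1651 with library totals alone, 1527 with limma on log2(RPKM + 1), 5291 with voom weights, 1083 with the block and trends together and 4425 with the trends removed and control replicate 2 left out. Leaving out 1 library gave 305 to 4279 higher and 886 to 4784 lower. In the lists beside the family, the 3 higher became 7 with DESeq2, 13 with voom weights, 6 with trends removed and 13 with control replicate 2 also left out. The 10 lower became 5 with library totals, 4 with no filter, 5 with limma on log2(RPKM + 1), 30 with voom weights, 6 with the replicate block, 2 with block and trends together and 28 with the trends removed and control replicate 2 left out. Leaving out 1 library gave 0 to 12 higher and 1 to 28 lower.

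The members' median of −0.13 became 0.06 with library totals, −0.05 with no filter and 0.05 with limma on log2(RPKM + 1), and −0.2 to −0.1 when 1 library was left out. The median of all genes was −0.04 with TMM, 0.13 with library totals, 0.04 with no filter and 0.08 with limma on log2(RPKM + 1). TRDMT1, 0.61, was called higher by DESeq2 (0.65), with library totals (0.80), by limma on log2(RPKM + 1) (0.25), with voom weights (0.66) and with the trends removed and control replicate 2 left out (1.29), and was 0.45 to 0.79 when 1 library was left out. With 1 library left out, the summed RPKM (−162.6) differed by −267.8 to 30.5 and the share of SLC25A28 by −1.91 to 0.148 points. The differences in share were −9.82 to −2.75 for SLC25A5, 2.78 to 11 for SLC25A13, −20.3 to −12.9 for SLC25A36, −1.19 to −0.912 for SLC25A40 and −9 to −3.52 for SLC25A24.

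Of the 33 members that were not called, 18 turned their sign under at least 1 alternative, SLC25A40 (−0.40) to as high as 0.28 and SLC25A46 (−0.72) to as high as 0.04. Among those of highest level, signs turned for SLC25A39 (−0.02 with voom, −0.22 with the trends removed, also with the block, −0.26 with control replicate 2 also left out, and 0 to 0.12 with 1 library left out), SLC25A11 (−0.03, −0.03 and 0 with the trends removed), SLC25A28 (0.07 without control replicate 2, −0.43 without control replicate 3) and SLC25A6 (0.24 with voom, 0.31 without control replicate 2, −0.69 without control replicate 3 and 0.02 with the trends removed as well). No called member turned its sign under any alternative. The causes were not tested.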
